A study of Mus musculus with 6 samples.

Results

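The NR4A nuclear receptors are 3 genes, Nr4a1, Nr4a2 and Nr4a3, taken by symbol from the 12389 genes of the per-library table. All 3 passed the filter on low values that left 12363 genes for testing. Every gene of the per-library table reached at least about 200.6 estimated reads in some library. Nr4a3 did so in WT only, with about 31 to 74 reads in KO, so it is among these genes through WT. The 3 members were picked on their KO to WT differences in scaled reads, which were already known. Those values are therefore given as a description without a test.

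Poly(A) RNA was sequenced from smooth muscle cells grown out of explants of mouse thoracic aorta in DMEM with fetal bovine serum, with no treatment and no more than 6 passages. There were 3 libraries from mice that lacked LRRC8A in smooth muscle (KO) and 3 from wild-type mice (WT). LRRC8A is the subunit that every volume-regulated anion channel needs. The titles give the groups, since the genotype field reads wild type for every sample. No Cre driver, strain, age or sex is stated in the labels. The cultures are described as independent biological replicates.

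NR4A receptors are transcription factors of the nuclear receptor superfamily that act without a known classical ligand, so their activity follows largely from how much of them a cell makes. They are immediate-early genes: serum, growth factors, cAMP and calcium entry induce them within a short time through CREB, MEF2 and serum response factor. Nr4a1 (Nur77), Nr4a2 (Nurr1) and Nr4a3 (NOR-1) bind the same DNA element as monomers, and Nr4a1 and Nr4a2 also pair with retinoid X receptors. In the arterial wall of mice Nr4a1 is known to restrain smooth muscle proliferation and Nr4a3 to favour it.

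Estimated depth, summed over the genes of the per-library table only, ran from 31600000 to 47900000 reads in KO libraries. In WT libraries it ran from 31000000 to 45400000 reads. Lrrc8a, the targeted gene, had 868, 672 and 506 scaled reads in KO replicates 1 to 3, against 2578, 2194 and 1221 in WT replicates 1 to 3. Every KO library lay below every WT library for Lrrc8a, the direction that the titles give. Smooth muscle markers were present in all libraries: Acta2, the smooth muscle actin, had 18724, 21829 and 59317 scaled reads in KO and 10651, 13083 and 130984 in WT. Replicate 3 stood above the other replicates for Acta2 in both genotypes. Of the 7 smooth muscle markers measured, 5 had a KO minus WT difference in log2(scaled reads + 2) below 0, with a median of -0.49, and 0 passed the limma test across all genes. Myh11, the smooth muscle myosin, had -2.63 (SE 1.16), Lmod1 -2.46 (SE 1.37) and Cnn1 -1.36 (SE 1.8), while Acta2 had 0.14 (SE 1.02). The part of these differences in the NR4A values was not tested. Myocd, Des and Mylk, also on the smooth muscle list, were not among the genes of the per-library table.

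Nr4a1 lies on chromosome 15, 101254269 to 101274795, on the plus strand (GRCm38, ENSMUSG00000023034). Nr4a2 lies on chromosome 2, 57106830 to 57124003, on the minus strand (ENSMUSG00000026826). Nr4a3 lies on chromosome 4, 48045153 to 48086447, on the plus strand (ENSMUSG00000028341). All 3 are protein-coding, and no other GENCODE M21 gene overlaps their spans. The promoters are shown because CREB, an activator of all 3 genes, reads the cAMP response element (CRE), whose full form is TGACGTCA and whose core is TGACG. Shown are bases from the 250 before the start that RefSeq gives for each gene in GRCm38.p6, 5′ to 3′ on the gene's own strand, with cores on either strand (TGACG or its reverse complement CGTCA) in capitals. The windows are chr15:101266596-101266845 for Nr4a1, chr2:57124004-57124253 for Nr4a2 and chr4:48045055-48045304 for Nr4a3. The Nr4a1 window lies in an intron of a longer annotated transcript. Of the Nr4a3 window, the last 152 bases lie in the first annotated exon, which begins before the RefSeq start, so only the first 98 bases (chr4:48045055-48045152) are printed.
Nr4a1: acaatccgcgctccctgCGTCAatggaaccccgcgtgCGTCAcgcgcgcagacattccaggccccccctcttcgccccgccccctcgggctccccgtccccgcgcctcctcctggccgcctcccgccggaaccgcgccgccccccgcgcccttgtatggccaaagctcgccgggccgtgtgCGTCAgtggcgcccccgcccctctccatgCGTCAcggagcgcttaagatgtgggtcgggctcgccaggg
Nr4a2: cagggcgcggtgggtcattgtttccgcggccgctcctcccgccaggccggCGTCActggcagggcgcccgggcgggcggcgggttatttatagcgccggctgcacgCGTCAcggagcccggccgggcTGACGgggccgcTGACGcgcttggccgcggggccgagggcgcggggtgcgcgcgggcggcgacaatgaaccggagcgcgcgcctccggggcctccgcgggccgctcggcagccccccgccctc
Nr4a3: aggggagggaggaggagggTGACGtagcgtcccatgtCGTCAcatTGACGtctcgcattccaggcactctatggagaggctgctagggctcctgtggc

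Each of the 3 windows held 4 cores. Of 32817 RefSeq windows of the same length, 17.7% held at least 1 core and 0.137%, or 45 windows, held at least 4. In Nr4a1 all 4 cores lay inside the longer element TGCGTCA, which occurred at least once in 1.74% of windows and at least 4 times in 1 window, that of Nr4a1. The Nr4a1 cores began at -233, -213, -69 and -40, counted in bases from the start. Those of Nr4a2 began at -200, -144, -123 and -111, and those of Nr4a3 at -231, -213, -205 and -147. The Nr4a3 core at -147 lies in the annotated exon and is not among the printed bases. None of the 3 windows held the full TGACGTCA (1.55% of windows) or AAAGGTCA, the element that NR4A monomers bind (1.34%). None held a CArG box, the serum response factor motif, taken as CCWWWWWWGG with W for A or T (1.47%). All are exact matches of letters within 250 bases on both strands, and no binding was measured. Near forms, such as ccttgtatgg in Nr4a1, were not counted.

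**Figure D1:**
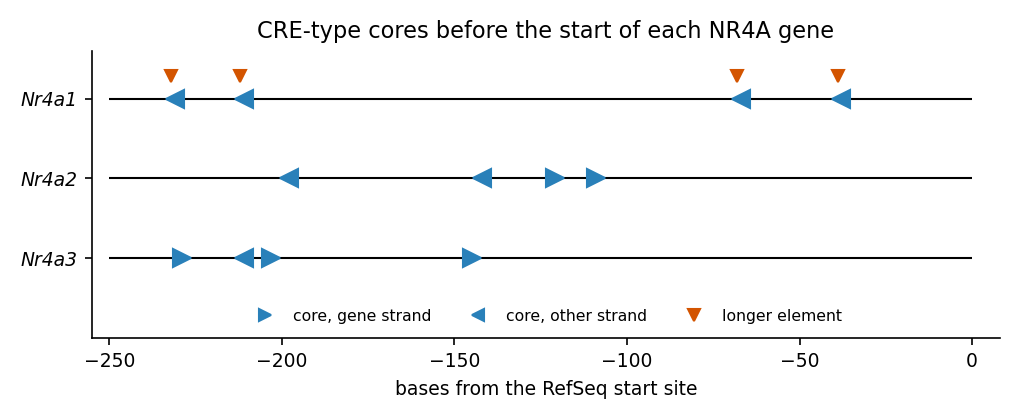
Positions of CRE-type cores in the 250 bases before the RefSeq start of each NR4A gene; the x axis gives bases from the start, arrowheads point along the strand of the core, and orange marks show the longer TGCGTCA element. Each gene has 4 cores, that of Nr4a3 at -147 lies in an annotated exon, and only those of Nr4a1 lie in the longer element.

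Nr4a3 set the KO and WT cultures furthest apart of the family. It had 43.9, 85.5 and 22.1 scaled reads in KO replicates 1 to 3, against 194, 759 and 384 in WT replicates 1 to 3. A scaled read is an estimated read divided by a factor for its library. The highest KO library lay below the lowest WT library, so the groups did not overlap. The group values were 50.5 ± 32.2 in KO and 446 ± 287 in WT (SD, n = 3 each), a KO to WT ratio of 0.113. The KO values stand for about 41, 74 and 31 reads and the WT values for about 164, 650 and 485 reads. On the log2(value + 2) scale the KO minus WT difference was -3.07 (SE 0.70), and 36 of the 12363 genes tested had a lower one. In bulk RNA, fewer cells that make a transcript and less of it per cell cannot be told apart.

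Nr4a1 was the more abundant transcript. It had 454, 488 and 256 scaled reads in KO, against 677, 1462 and 681 in WT. Again every KO library lay below every WT library. The group values were 399 ± 125 in KO and 940 ± 452 in WT (SD, n = 3 each), a ratio of 0.425. The log2 difference was -1.19 (SE 0.40), with 2.99% of genes lower.

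Nr4a2 did not separate the genotypes. It had 87.7, 348 and 127 scaled reads in KO, against 148, 372 and 311 in WT. KO replicate 2 lay above WT replicates 1 and 3, so the groups overlapped. The group values were 187 ± 140 in KO and 277 ± 116 in WT (SD, n = 3 each), and the log2 difference of -0.71 had an SE of 0.61. It was -0.29 without KO replicate 1, -0.44 without WT replicate 2, -1.10 without WT replicate 1 and -1.28 without KO replicate 2.

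KO libraries lay wholly below WT libraries for 2 of the 3 members, and 4.51% of all genes tested did so. As the members were picked with this contrast known, nothing is read from that share. In the authors' deposited table the log2 ratios, KO over WT, were -3.15 for Nr4a3, -1.24 for Nr4a1 and -0.57 for Nr4a2. Nr4a3 was among the 51 genes that the authors' deposited table lists as lower at a false discovery rate (FDR) under 0.05, or 0.412% of its genes, and Nr4a1 and Nr4a2 were not. Both sets of values rest on the same 6 libraries. As the members were picked with this contrast known, the listing of Nr4a3 is no separate support. The limma test across all genes called 0 at an adjusted p under 0.05, against 65 genes in the authors' deposited table.

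**Figure D2:**
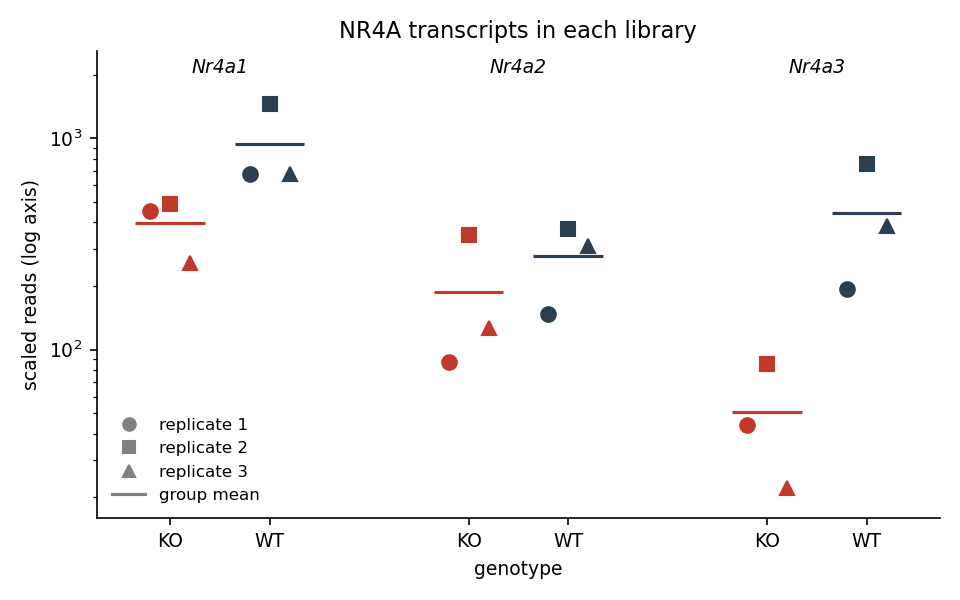
Scaled reads of each NR4A gene in the 6 libraries on a log axis, KO left of WT; symbols mark the replicate number and horizontal bars the group means. Nr4a3 runs from 22.1 to 85.5 in KO and from 194 to 759 in WT, Nr4a1 is parted more narrowly, and Nr4a2 overlaps.

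A peak in replicate 2 was shared by all 3 genes, which was noticed after their values were seen and is given as a description. Replicate 2 was the highest library within KO and again within WT for Nr4a1, Nr4a2 and Nr4a3, which held for 10.1% of all genes tested. Among 21 other immediate-early genes it held for 1, Ier2, a small nuclear protein induced by serum. The other replicates kept no common order. Replicates 1 and 3 had 454 and 256 scaled reads of Nr4a1 in KO but 677 and 681 in WT. For Nr4a3 they had 43.9 and 22.1 in KO but 194 and 384 in WT. The Nr4a1 peak in KO was slight, as replicates 1 and 2 stood for about 424 and 422 reads. No label says what a replicate number marks.

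Set side by side by replicate number, KO lay below WT in all 9 comparisons. For Nr4a3 the log2 differences were -2.10, -3.12 and -4.00 in replicates 1, 2 and 3. For Nr4a1 they were -0.58, -1.58 and -1.40. For Nr4a2 they were -0.74, -0.10 and -1.28, so replicate 2, where the gene was highest, showed almost the same level in both genotypes. With the replicate block the SEs of Nr4a3, Nr4a1 and Nr4a2 were 0.50, 0.26 and 0.35. A KO value below WT in all 3 pairs occurred for 15.0% of genes tested, from which nothing is read for the members.

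**Figure D3:**
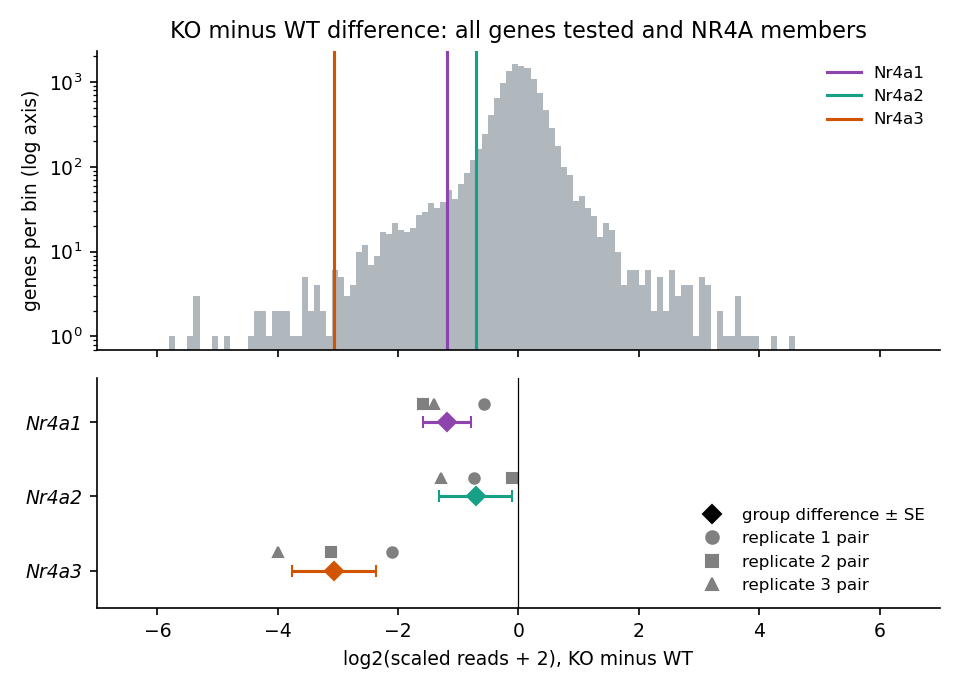
Top, histogram of KO minus WT differences in log2(scaled reads + 2) over 12363 genes with the 3 members as lines, on a log count axis; bottom, each member's group difference with its SE and the differences of same-numbered replicates. All 9 replicate differences lie below 0, from -4.00 to -0.10.

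Levels of different genes were compared per kilobase (kb) of annotated exon, which was 3.509 kb for Nr4a1, 4.059 kb for Nr4a2 and 5.987 kb for Nr4a3. In KO the levels were 114 ± 35.6 scaled reads per kb for Nr4a1, 46.2 ± 34.6 for Nr4a2 and 8.43 ± 5.40 for Nr4a3, against 268 ± 129, 68.3 ± 28.5 and 74.5 ± 48.1 in WT (SD, n = 3 each). The order Nr4a1, Nr4a2, Nr4a3 held in each KO library. In WT Nr4a1 was highest in each library, while Nr4a2 and Nr4a3 differed by less than their spread and changed places in replicate 2. The summed level was 158, 239 and 108 scaled reads per kb in KO and 262, 635 and 335 in WT.

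Nr4a3 made up 4.63%, 5.98% and 3.41% of the summed level in KO, against 12.4%, 19.9% and 19.1% in WT. These shares do not depend on how libraries were scaled, and the groups did not overlap. They and the ratios below rest on the values by which the members were picked, so they are no separate support. The log2 ratio of Nr4a3 to Nr4a1 per kb was -4.14, -3.28 and -4.31 in KO, against -2.57, -1.72 and -1.60 in WT. Nr4a3 was thus lower relative to Nr4a1 within each KO library than within any WT library. The log2 ratio of Nr4a2 to Nr4a1 overlapped, at -2.58, -0.70 and -1.23 in KO and -2.40, -2.18 and -1.34 in WT.

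**Figure D4:**
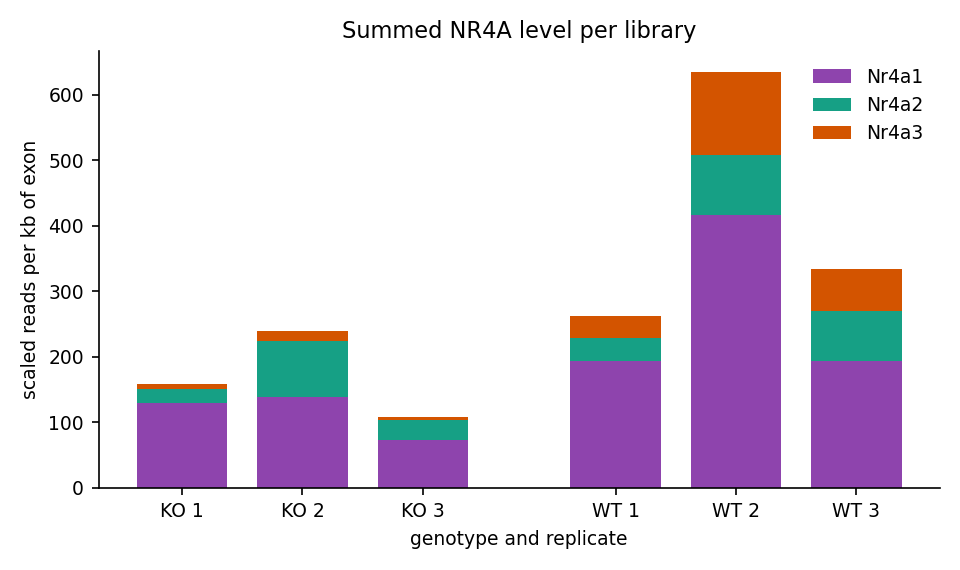
Scaled reads per kb of exon for Nr4a1, Nr4a2 and Nr4a3, stacked for each library, KO left of WT, with the axis from 0. Nr4a3 forms a thin band of at most 5.98% in KO and of 12.4% to 19.9% in WT.

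Across all genes, limma with Benjamini-Hochberg adjustment called 0 of 12363 (0.0%) at an adjusted p under 0.05. An unadjusted p under 0.05 was reached by 447 genes (3.62%), 2.15% lower and 1.46% higher in KO. Lrrc8a, the targeted gene, was not called either, at a log2 difference of -1.51 (SE 0.34). The authors' deposited table lists it at an FDR under 0.05. In each list that follows 0 members passed in either direction, which does not show that their levels were unchanged. Groups did not overlap, here called separated, for 8.43% of all genes, 4.51% lower and 3.91% higher in KO. A gene with few reads in either genotype could be in the per-library table only through its reads in the other. The median log2 difference of all genes was 0.00, and 49.6% of genes lay below 0. Genes named from a list had its smallest p-values or highest levels, unless stated otherwise.

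The next lists hold transcripts of pathways that induce NR4A genes. Their levels do not measure how active those pathways were. Of 20 tested genes of cAMP and CREB signalling 15 had a log2 difference below 0, with a median of -0.05 and no separated gene. The cAMP phosphodiesterases Pde4a and Pde4d had -0.72 (SE 0.38) and -0.81 (SE 0.55), and the CREB-family factor Crem, itself induced by cAMP, had -0.79 (SE 0.53). The adenylyl cyclase Adcy7 had -0.97 (SE 0.75). The abundant regulatory subunit Prkar1a had 16997, 13377 and 14966 scaled reads in KO and 18878, 15917 and 13262 in WT. Adcy6, another adenylyl cyclase, had a log2 difference of 0.15 (SE 0.19).

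Of 17 tested genes of MEF2 and calcineurin signalling 12 lay below 0, with a median of -0.08. Its only separated gene was Rcan1, a calcineurin inhibitor induced by calcineurin signalling, with 1192, 1093 and 881 scaled reads in KO against 1228, 3357 and 1301 in WT. Its log2 difference was -0.74 (SE 0.40), and like the NR4A genes it was highest in replicate 2 of WT, though not of KO. The related Rcan2 had -0.82 (SE 0.46), the class IIa deacetylase Hdac4, which represses MEF2, -0.38 (SE 0.21), and Nfatc1, a calcineurin target, -0.32 (SE 0.30). The abundant members Ppp3r1, the calcineurin regulatory subunit, and Hdac7 had -0.08 (SE 0.19) and -0.06 (SE 0.37).

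Of the 14 genes of MAP kinase signalling 8 lay below 0, with a median of -0.05, with no gene separated and none at an unadjusted p under 0.05. The kinases Map2k1 and Map2k3 had -0.31 (SE 0.23) and -0.19 (SE 0.18), and the serum response partners Elk3 and Elk1 0.31 (SE 0.31) and 0.15 (SE 0.18). Mapk3, a terminal kinase of the pathway, had 0.08 (SE 0.22).

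Of 22 partners of the NR4A proteins 19 were tested, with a median of 0.10. The retinoid X receptors Rxra and Rxrb had log2 differences of -0.17 (SE 0.21) and 0.15 (SE 0.22). Fhl2, a LIM protein that binds NR4A1 in smooth muscle cells, had 1936, 1408 and 6616 scaled reads in KO and 1983, 2289 and 2281 in WT, so that KO replicate 3 alone stood apart. The coactivator Ncoa1 had 0.79 (SE 0.33) at an unadjusted p of 0.0456 (limma, adjusted p 0.999). The kinase Akt1, which phosphorylates NR4A1, was the only separated gene, with 9979, 10784 and 11267 scaled reads in KO against 7518, 8603 and 9932 in WT. Its log2 difference was 0.31 (SE 0.20). The corepressor Rcor1 had 0.25 (SE 0.24).

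Of 27 genes described in other cells as NR4A targets, 16 were tested, with a median of -0.28, 10 below 0 and 3 separated, all lower in KO. Star, the carrier of cholesterol into mitochondria and a target in steroid-producing cells, had 193, 119 and 54.8 scaled reads in KO against 294, 564 and 574 in WT. Its log2 difference was -2.06 (SE 0.53), at an unadjusted p of 0.00567 and a limma adjusted p of 0.999. Birc3, an inhibitor of apoptosis reported as an NR4A3 target in endothelial cells, had 463, 340 and 320 in KO against 525, 560 and 600 in WT, a log2 difference of -0.60 (SE 0.24).

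Bcl2l11, the apoptosis activator BIM and also a listed target, had 0.55 (SE 0.29) with overlapping groups. Vcam1, an adhesion molecule and the gene of the list with the most scaled reads, had 30748, 71571 and 6316 scaled reads in KO and 56033, 33083 and 23934 in WT, with KO both highest and lowest. Cell cycle targets, named after their values were seen, were Cdkn1b at 0.33 (SE 0.23), Ccnd1 at 0.67 (SE 0.49), Skp2 at 0.23 (SE 0.31) and Cdkn1a at -0.06 (SE 0.31). The element AAAGGTCA was found before the start of 0 of 21 target genes with a RefSeq window, and before 1.55% of all 26994 genes with one.

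Of 21 other immediate-early genes 15 had a log2 difference below 0, with a median of -0.17, and 3 were separated, all lower in KO. Atf3, a stress-induced factor, had 66.3, 83.2 and 43.4 scaled reads in KO against 409, 363 and 181 in WT (log2 difference -2.23, SE 0.51). Ier3 and Junb had -0.89 (SE 0.27) and -0.57 (SE 0.18), and Maff, which overlapped, -0.85 (SE 0.46). The abundant Klf4 and Fosl2 had -0.00 (SE 0.44) and -0.03 (SE 0.23). At least 1 CRE core lay before the start of 61.1% of the 18 list genes with a window, against 19.8% of all genes.

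Among 26 other nuclear receptors the median log2 difference was 0.05, with 1 gene separated as lower in KO and 4 as higher. The lower one was Nr1h3, the oxysterol receptor LXRα, with 93.1, 126 and 34.2 scaled reads in KO against 357, 301 and 291 in WT (-2.06, SE 0.55). Of the higher ones, Nr2f2 (COUP-TFII) had 2792, 3867 and 4012 in KO against 1175, 2377 and 1694 in WT (1.06, SE 0.30). The oestrogen receptor Esr1 had 1150, 572 and 854 in KO against 445, 197 and 73.6 in WT (2.13, SE 0.64). The retinoic acid receptors Rarg and Rarb, named after their values were seen, had 0.45 (SE 0.19) and 3.10 (SE 1.63). The progesterone receptor Pgr, at 3.85 (SE 1.49), overlapped. The glucocorticoid receptor Nr3c1, the gene of the list with the most scaled reads, had 0.14 (SE 0.29).

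**Figure D5:**
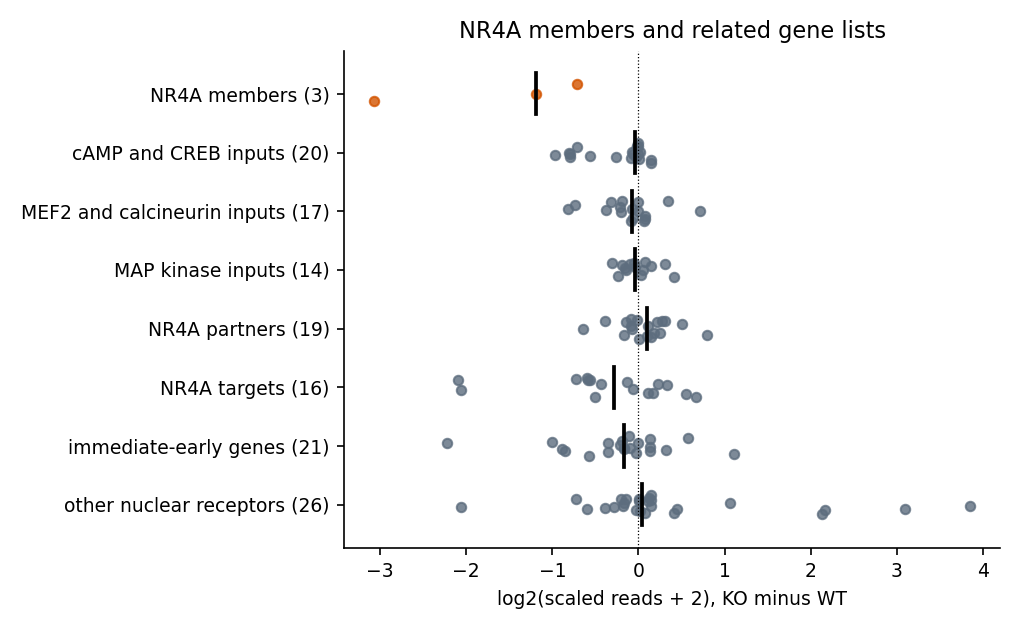
KO minus WT differences in log2(scaled reads + 2) for the NR4A members and 7 related lists, with 1 point per gene and a black bar at each list's median; numbers in brackets count the genes tested. Medians of the related lists lie between -0.28 and 0.10.

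Genes whose profile over the 6 libraries was most like that of a member were found by the root mean square distance between centred log2 profiles, among 11102 named genes with a mean of at least 100 scaled reads. Closest to Nr4a1 were Calcrl, the receptor of adrenomedullin and CGRP, at 0.15, Chac1, a glutathione-degrading enzyme, at 0.20, Mgst1 at 0.26, Prrt1 at 0.29 and Cyp27a1 at 0.30. The median gene lay 0.83 from Nr4a1. Calcrl had 164, 153 and 97.5 scaled reads in KO against 245, 421 and 209 in WT, with the peak in WT replicate 2 that Nr4a1 shows.

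Closest to Nr4a2 were Ptp4a1, a phosphatase, at 0.20, Ifi204 at 0.22, the serotonin receptor Htr2a at 0.24, Tshz1 at 0.27 and Mustn1 at 0.30, against 0.87 for the median gene. Htr2a had 233, 703 and 322 scaled reads in KO and 250, 931 and 827 in WT, so it too was highest in replicate 2 of both genotypes. The genes nearest to Nr4a3 lay further off, namely Gas6, a ligand of TAM receptors, at 0.73, Star and Hp at 0.77, Sept3 at 0.78 and Alcam at 0.79. The median gene lay 1.76 from it. By this distance the members were not the nearest genes to each other. Nr4a1 and Nr4a2 lay 0.68 apart, with 1811 genes nearer to Nr4a1 and 846 nearer to Nr4a2. Nr4a1 and Nr4a3 lay 1.03 apart, with 9177 genes nearer to Nr4a1 and 32 nearer to Nr4a3. Nr4a2 and Nr4a3 lay 1.28 apart, with 10178 genes nearer to Nr4a2 and 131 nearer to Nr4a3. Profiles were centred but not brought to a common range, so a distance also grows with the size of a gene's changes. Nr4a1 and Nr4a3 were both highest in WT replicate 2 and lowest in KO replicate 3. These distances share the 6 libraries and their scaling, and carry no test. Calcrl and Htr2a were picked by their likeness to a member, so the replicate 2 peaks they share with it are no separate finding.

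Of the markers of other cells 0 passed the test in any list. Of 10 leukocyte markers 4 were measured (Lyz2, Cd14, Csf1r and Cd68), all 4 with a log2 difference below 0, and their summed level was 834 to 1676 scaled reads in KO and 1995 to 2616 in WT. Of 9 epithelial and mesothelial markers 6 were measured, at 1104 to 7368 in KO and 5626 to 11725 in WT. These sums did not overlap for leukocyte markers and overlapped for epithelial and mesothelial ones. The 8 fibroblast markers summed to 171605 to 219396 in KO and 120941 to 153881 in WT. Most of that sum was Col1a1, a collagen chain, with 165479, 119121 and 194742 scaled reads in KO and 117469, 96639 and 100354 in WT. Of the 8 log2 differences 4 lay above 0 and 4 below, among them Dpt and Lum at -1.65 (SE 1.39 and 2.61). Summed levels overlapped for the 7 measured smooth muscle markers, at 82323 to 192905 in KO and 80856 to 374387 in WT. Of 8 endothelial markers only Kdr was measured, at 21.3 to 423 in KO and 42.7 to 433 in WT. The part of these cells in the NR4A values was not tested.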

How the data were processed

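Per the submitters' processing notes the authors used STAR, DESeq2 and Partek, and name GRCm39 and mm39 as builds; roles and settings are not stated. The deposited gene coordinates are nevertheless those of GRCm38: 12341 of 12385 starts equal those of GENCODE M21. The per-library table deposited under a raw count name holds no whole counts but a scaled signal, estimated reads divided by a factor per library by the authors, with 1 read worth 0.7116 to 1.1853. Between 82.0% and 92.4% of values under 50 reads came within 0.05 of whole reads, too few to recover exact counts. Reads and depths are therefore given as estimates. The authors' deposited table adds group means, the log2 ratio, the ratio and fold change (a signed score), p-values and FDR, per the file headers.

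Differences were fitted with limma 3.58.1 (R 4.3.3, statmod 1.5.0; mean trend, robust priors, two-sided) on log2(value + 2) for genes with at least 10 in at least 3 libraries, with genotype alone, and checked on simulated data. P-values set each KO minus WT difference against the spread within genotype between these 6 cultures, with that spread drawn towards a trend over all genes. Same-numbered libraries deviated together across genes (correlations 0.43, 0.15 and 0.39), least in replicate 2. From this the numbers were taken as pairs, in the side-by-side differences and the replicate block only. SEs and p-values not said to be from the block ignore the pairs. Named were the members, Lrrc8a, Rxra, Rxrb, Fhl2, up to 4 genes per list by smallest p and 2 by level, 2 per marker list, and 5 nearest genes per member; 4 genes that this rule names are not reported here. Members and lists were chosen with earlier results of these data known. Alternatives were other scalings, pseudocounts, filters, the other table, prior settings, limma-voom, library weights, a replicate block and each library left out. Promoter sequences are RefSeq's; 3 of 3 members matched.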

Additional observations from a re-analysis of the deposited data

How the results depend on the processing

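For KO against WT across all genes, the number called stayed at 0 under every alternative except library quality weights, which stopped before convergence (30 genes, 6 higher and 24 lower in KO), and leaving out KO replicate 1 (1 gene), a range of 0 to 1 over the left-out libraries. With the weights 2284 genes had an unadjusted p under 0.05, against 447 in the main fit. With the replicate block 0 genes were called, 917 had an unadjusted p under 0.05, and no call changed. The log2 differences of all 3 members stayed below 0 under all 19 alternatives. As the members were picked on these differences in the same libraries, nothing is read from that. For Nr4a1 and Nr4a3, whose groups did not overlap, no left-out library could turn the sign. Leaving out each library gave -3.56 to -2.58 for Nr4a3, -1.37 to -0.82 for Nr4a1 and -1.28 to -0.29 for Nr4a2. The other settings gave -3.44 to -2.79, -1.60 to -1.16 and -0.74 to -0.67 for the same genes. The alternatives were followed for 52 other genes named by rule, without markers, Lrrc8a and genes named after their values were seen. Of the 52, Mgst1 and Gas6 passed with the weights at log2 differences of -1.33 and -2.74, and 9 genes turned sign at least once. With the weights these were Hdac7 (0.09), Vcam1 (0.35), Klf4 (0.31), Fosl2 (0.02) and Fhl2 (-0.31). Klf4 also turned with total (0.03), TMM (0.00) and quantile scaling (0.02), and Fosl2 with total (0.00) and quantile scaling (0.01). Leaving out single libraries turned Prkar1a (-0.20 to 0.05), Hdac7 (-0.38 to 0.34), Mapk3 (-0.03 to 0.23), Vcam1 (-1.34 to 0.41), Klf4 (-0.35 to 0.42), Fosl2 (-0.13 to 0.14), Nr3c1 (-0.07 to 0.37), Fhl2 (-0.40 to 0.72) and Ptp4a1 (-0.86 to 0.01). The causes were not tested. Depth limits Nr4a3 most, at about 31 to 74 reads in KO libraries.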

Other observations

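The 45 RefSeq windows with at least 4 CRE cores belonged to 41 genes besides Nr4a1, Nr4a2 and Nr4a3, a set looked at after the members' promoters had been read. Of these 34 were tested, and 19 had a log2 difference below 0, with a median of -0.08 and a range of -0.62 to 1.21. Limma passed 0 of the 34 after adjustment, and 1, the kinase gene Braf, had an unadjusted p under 0.05 (-0.59, p 0.0361, adjusted p 0.999). All 34 lay above Nr4a2, the member with the smallest difference. As the members were picked with these differences known and the 34 genes were not, nothing is read from that order.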
